A study of Mus musculus with 12 samples.

Results

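Genes of heat shock proteins and other molecular chaperones were followed in the RNA of purified mouse brain myelin at 4 ages. They were taken by gene symbol from the deposited table: the Hspa, Hspb, Hspd, Hspe, Hsph and Hsp90 genes, the numbered Dnaja, Dnajb and Dnajc genes, Cct2 to Cct8 and Bag1 to Bag6, leaving out the unrelated proteoglycan gene Hspg2. These symbols matched 85 of the 21937 genes in the table, namely 13 of the Hsp70 family, 3 of the Hsp90 family, 8 small heat shock proteins, 2 cofactors that bind heat shock proteins, 3 Dnaja, 13 Dnajb and 24 Dnajc genes, 6 subunits of the cytosolic chaperonin, 8 mitochondrial genes and 5 Bag genes. Members of the Hsp70, Dnaja and Dnajc families that work in mitochondria were counted with the mitochondrial genes. The small heat shock proteins were grouped by a numbered Hspb symbol alone, Hspb11 included. Myelin was isolated from the brains of male wild-type c57Bl6/N mice at the age of 18 days (P18), 75 days (P75), 6 months or 24 months, with 3 libraries at each age. Individual brains are stated for the 6-month libraries, and for the other ages the sources used here do not say whether a library came from a single mouse. No genotype or treatment separated the groups, so that age was the only labelled difference between them. The material was a light membrane fraction in which myelin is enriched, not a sorted cell type, and in such bulk RNA fewer cells of a type and less RNA per cell cannot be told apart.

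Chaperones bind unfolded or partly folded proteins and keep them from aggregating until they fold, refold or are degraded. The Hsp70 proteins do this in cycles of ATP hydrolysis started by J-domain (Dnaj) partners and ended by nucleotide exchange factors such as the Bag proteins, and Hsp90 acts later in folding on kinases and hormone receptors, while small heat shock proteins hold unfolded proteins without ATP. Separate sets serve the endoplasmic reticulum (ER), where membrane and secreted proteins such as the main proteolipid of myelin are folded, and mitochondria, and heat or unfolded proteins raise the cytosolic set through heat shock factors and the ER set through the unfolded protein response.

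The libraries held 20299052 to 27214385 reads on genes, and the values given are normalized read counts, that is, read counts divided by a size factor for each library, so that 1 read was worth 0.812 at 6 months in replicate 1 and at most 1.19 in any library. Mbp, the gene of myelin basic protein, took 9.47% to 20.8% of the reads at P18 and 4.76% to 8.48% at the other ages. Its P18 share was 15.1%, 20.8% and 9.47% in replicates 1, 2 and 3. Of the P18 libraries replicate 3 was most often the highest (6442 of 14634 genes) and most often the lowest (5620). All 8 markers of mature oligodendrocytes and all 8 of microglia had reads, and the summed level of the microglial markers was 4000 to 5150 at P18, 6033 to 7070 at P75, 7743 to 8867 at 6 months and 10546 to 12381 at 24 months. The summed neuronal markers lay between 165307 and 203581 at P18 and between 194396 and 223069 at P75. They lay between 174738 and 178584 at 6 months and between 166086 and 170670.0 at 24 months, so RNA of other brain cells was present at every age.

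The chaperone genes together took 1.004% to 1.51% of all reads of a library. The largest part fell to 3 cytosolic genes. Hspa8, the constitutive Hsp70, ranked 18 among all genes by mean normalized read count, the stress-responsive Hsp90aa1 ranked 23, and the constitutive Hsp90ab1 ranked 27. Together they made up 40.0% to 48.1% of the reads of all chaperone genes. To compare genes, levels were divided by the length of the longest coding transcript and scaled so that all libraries had the same sum over genes. On this length-scaled measure the mean over the 12 libraries was 1885 for Hspa8, 1452 for Hsp90ab1 and 1231 for Hsp90aa1. Next came Hspe1, the mitochondrial co-chaperonin, at 384, the ER Hsp90 gene Hsp90b1 at 356, and Bag1, an exchange factor of Hsp70, at 327. The chaperonin subunits Cct8, Cct5 and Cct7 followed at 281, 263 and 262, and Hspa5, the ER Hsp70 also known as BiP, at 250.2. Of the 85 genes 8 had a mean normalized read count under 10 and were not tested. These were Dnajb13 with a mean of 9.49, the small heat shock protein genes Hspb7 and Hspb9 with means of 4.26 and 1.89, Dnajc5b, Dnajc22 and Dnajb7 with means of 1.48, 1.10 and 0.378, and Dnajb8 and Dnajc5g, which had no read in any library. The last 2 are known from testis, and 0 reads allow at most 3 reads in a library.

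**Figure D1:**
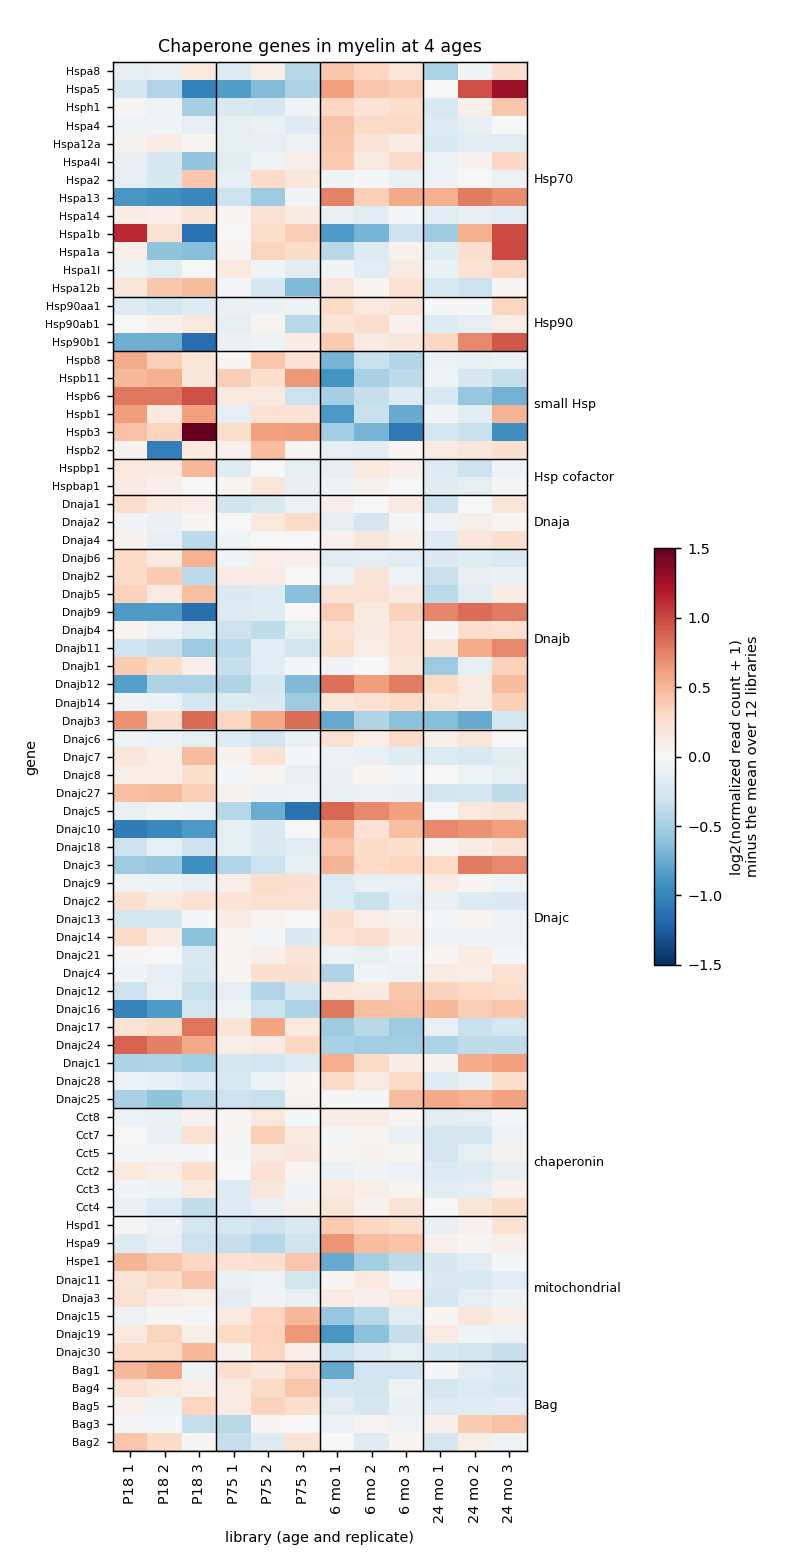
Heat map of the 77 chaperone genes tested, with genes in rows grouped by family and the 12 libraries in columns grouped by age. The colour gives log2(normalized read count + 1) minus the gene's mean over the 12 libraries, limited to 1.5 in either direction. Hspa5, Hspa13, Hsp90b1, Dnajb9, Dnajc3 and Dnajc10 run from low at P18 to high at 24 months, while Hspb6, Hspb3 and Dnajc24 run the other way.

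Ages were compared with limma on log2(normalized read count + 1) over 14634 genes, and a gene was called changed at a Benjamini-Hochberg adjusted p under 0.1. The 5 comparisons share libraries and are therefore not independent of each other. From P18 to P75, 27 of the 77 tested chaperone genes were called, 12 higher and 15 lower, beside a background of 48.8% of all genes tested, with 25.9% higher and 22.9% lower. From P75 to 6 months 54 were called, 31 higher and 23 lower, where the background was 60.6%, with 31.2% higher and 29.4% lower. From 6 to 24 months 23 were called, 12 higher and 11 lower, beside 29.3% of all genes, 16.6% higher and 12.7% lower. Over the longer spans, 43 were called from P75 to 24 months, 21 higher and 22 lower, beside 54.9% (28.8% higher, 26.1% lower), and 51 from P18 to 24 months, 23 higher and 28 lower, beside 69% (34.7% higher, 34.3% lower). As shares of the 77 these counts are 35.1%, 70.1%, 29.9%, 55.8% and 66.2% in the same order, below the background for P18 to P75, above it for P75 to 6 months and within 3 points of it in the others. The split depended on the scaling: with libraries rescaled to the same total, which moved the median change of all genes from 0.02 to 0.14 on the log2 scale for P18 to P75, 18 were higher and 7 lower there, and 27 higher and 21 lower from P18 to 24 months. With a trend on transcript GC content removed 10 were higher and 22 lower from P18 to P75, and 10 higher and 14 lower from 6 to 24 months. With a trend on transcript length removed 7 were higher and 16 lower from 6 to 24 months. From P75 to 6 months 44 of the 77 were then called, beside 8155 of 14153 genes. The share of chaperones called at this step was then no longer above the background. The count of 23 for 6 to 24 months fell to 13 without 6-month replicate 1, 13 without 6-month replicate 2 and 11 without 24-month replicate 2.

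Among the chaperone genes the 6 largest rises from P18 to 24 months were those of the ER genes Dnajb9, Dnajc10, Hspa13, Hsp90b1, Hspa5 and Dnajc3, followed by Dnajc16 (1.14) and Dnajc25 (1.06), which are not on the ER list. All 10 listed genes were higher at 24 months than at P18, with a median log2 change of 1.30 where the median of all genes tested was -0.01, and all 10 were higher at 24 months than at P75, with a median of 0.78. Of the other 67 tested chaperone genes, 13 rose and 28 fell from P18 to 24 months. Over the alternative settings 9 to 17 chaperone genes outside the list rose and 21 to 32 fell. The list need not hold every ER gene, so these 67 are not shown to be outside the ER. Among all genes tested 34.7% rose and 34.3% fell over this span. Over every alternative setting 9 or 10 of the 10 ER genes rose from P18 to 24 months and none fell. The exception was Dnajb14, whose change of 0.36 (adjusted p = 0.0308) was 0.30 (adjusted p = 0.11) without 24-month replicate 3, 0.16 and 0.22 with the length or GC trend removed and 0.11 after quantile normalization, none of them called. Quantile normalization moved the median of all genes from -0.01 to -0.12.

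Hspa5, the Hsp70 of the ER lumen (chr2:34627490-34632051 on mm9), binds nascent chains as they enter the ER. Its normalized read count was 5082, 4461 and 2979 at P18 and 3370.1, 3853 and 4388 at P75. It was 9213, 7992 and 7813 at 6 months and 6059.8, 11819.9 and 14638 at 24 months. The values at P18 and P75 overlapped, and each later library lay above all of them. The log2 change was -0.08 ± 0.24 (SE, adjusted p = 0.81) from P18 to P75 and 1.11 ± 0.24 (adjusted p = 0.00117) from P75 to 6 months. From 6 to 24 months it was 0.29 ± 0.24 (adjusted p = 0.42), with the 24-month libraries 2.42-fold apart.

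Hsp90b1, the ER member of the Hsp90 family, also called GRP94 (chr10:86152954-86168254), rose earlier. It had 5865, 5903 and 4439 normalized reads at P18, then 9115, 9261 and 10548 at P75. At 6 months it had 12823, 10757 and 11031, and at 24 months 12142, 16058 and 18716. The libraries of P18, P75 and the later ages did not overlap, whereas those of 6 and 24 months did. It rose by 0.84 ± 0.15 on the log2 scale from P18 to P75 (adjusted p = 0.000292). The change from P75 to 6 months was not called. From 6 to 24 months the gene rose by 0.42 (adjusted p = 0.0546). This last step was not called without replicate 2 or 3 of either age (0.28 to 0.39, adjusted p from 0.12 to 0.21) or on equal totals (0.38, adjusted p = 0.10). From P18 to 24 months the rise was 1.52 ± 0.15 (adjusted p = 1.83e-07). Its share of the reads of the 3 Hsp90 genes went from 6.61% ± 1.14 (SD, n = 3) at P18 to 16.0% ± 1.73 at 24 months.

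The J-domain partners of Hspa5 rose as well. Dnajb9 (chr12:45306884-45311055), which also serves ER-associated degradation, had 777, 776 and 643 normalized reads at P18, 1218, 1241 and 1409 at P75, 1819.8, 1553 and 1785 at 6 months, and 2334, 2504 and 2412 at 24 months. It rose at each of the 3 steps with no overlap between neighbouring ages, by 0.82, 0.41 and 0.49, each ± 0.10 (adjusted p = 9.79e-06, 0.00178 and 0.00342). Dnajc10 (chr2:80155623-80194200), a disulfide reductase of the ER, had 793, 835 and 899 at P18, 1488, 1408 and 1642 at P75, 2362, 1907 and 2242 at 6 months, and 2688, 2608 and 2507 at 24 months. Its change from P18 to 24 months was 1.63 ± 0.09 (adjusted p = 7.67e-10), and the last step of 0.27 (adjusted p = 0.0534) was 0.23 (adjusted p = 0.23) on equal totals, 0.18 (adjusted p = 0.23) without 6-month replicate 2, 0.24 (adjusted p = 0.15) without 24-month replicate 1 and 0.26 (adjusted p = 0.13) without 24-month replicate 2. Both genes were thus lowest in the 3 P18 libraries and highest in the 3 libraries of 24 months.

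Hspa13, a small Hsp70-like ATPase of microsomes (chr16:75755435-75767066), had 422, 409 and 394 normalized reads at P18 and 1125, 1326 and 1252 at 24 months, a log2 rise of 1.59 ± 0.12 (adjusted p = 1.36e-08). Dnajc3, which binds unfolded proteins in the ER lumen and is also known as an inhibitor of the kinases of eIF2, had 769, 750.2 and 589 at P18 and 1380.0, 1913 and 1841 at 24 months, a rise of 1.28 ± 0.13 (adjusted p = 3.3e-07). Neither gene overlapped between P18 and 24 months. For Dnajb12, a J protein anchored in the ER membrane, the highest age was 6 months: it had 191, 217 and 165 at P75, 463, 406 and 447 at 6 months and 323, 288 and 364 at 24 months. It rose by 1.20 ± 0.13 from P75 to 6 months (adjusted p = 2.85e-06), and its later change of -0.44 (adjusted p = 0.0317) was -0.40 (adjusted p = 0.11) without 6-month replicate 1 and -0.35 (adjusted p = 0.14) without 24-month replicate 2. Dnajb11, Dnajc1 and Dnajb14 completed the list, with changes of 0.89, 0.89 and 0.36 from P18 to 24 months.

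By step, 5 of the 10 ER genes rose from P18 to P75, beside 25.9% of all genes tested. From P75 to 6 months 9 of them rose, beside 31.2%. From 6 to 24 months 4 were called higher and 1 lower, beside 16.6% and 12.7% of all genes tested. The 4 became 1, Dnajb9, without 6-month replicate 2 or 24-month replicate 2, and 2 without replicate 3 of either age. Their share of the reads of all chaperone genes was 4.03% to 5.54% at P18, 6.71% to 8.22% at P75, 8.56% to 9.68% at 6 months and 10.97% to 13.6% at 24 months. The 4 ranges did not overlap. Of 16 further genes for ER folding and the unfolded protein response that the symbol rule does not take, among them Hyou1, a large relative of Hsp70, 13 were called higher and 2 lower from P18 to 24 months, with a median of 1.07, and 1 to 2 were called lower with a library left out. The 2 called lower, named after their values were seen, were the stress transcription factors Atf4 (-0.32 ± 0.09, adjusted p = 0.00636) and Ddit3 (-0.30 ± 0.14, adjusted p = 0.0803). The summed microglial markers moved in the same order of ages, and 7 of the 8 rose from P18 to 24 months with a median of 0.92. Their part in the ER values was not tested. Of the 8 mature oligodendrocyte markers 7 fell between these ages, with a median of -1.21. Among all genes tested 34.7% were called higher and 34.3% lower from P18 to 24 months.

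**Figure D2:**
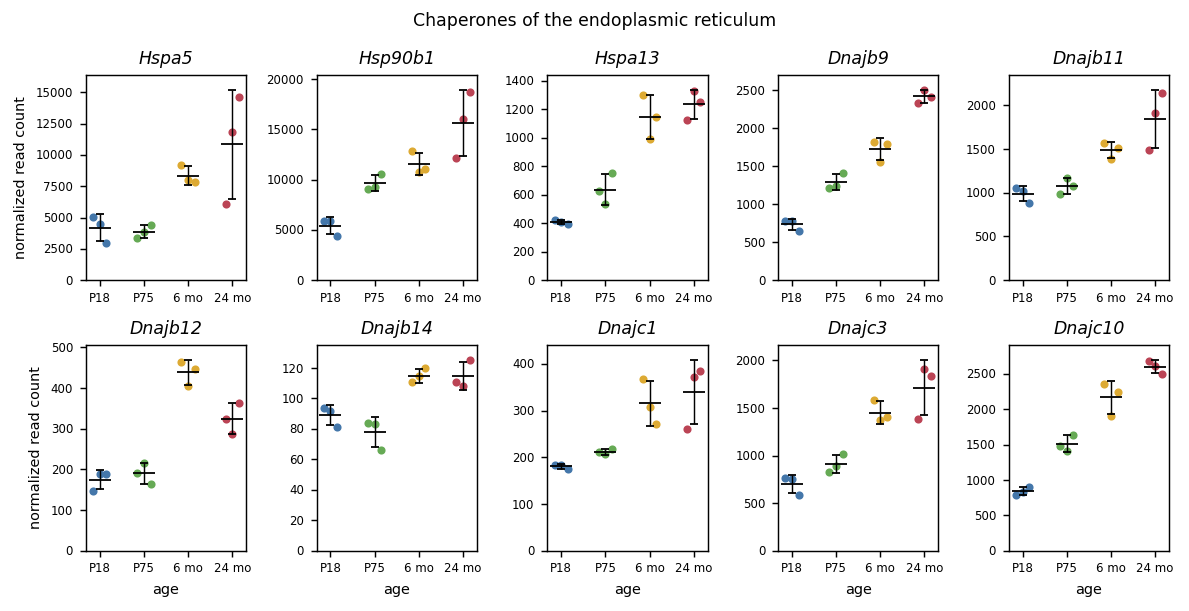
Normalized read counts of the 10 ER chaperone genes in each library at P18, P75, 6 months and 24 months, with a point for each library, a horizontal line for the mean and bars of 1 SD over the 3 libraries, all axes starting at 0. For Dnajb9 and Dnajc10 the 24-month points lie close together, at 2334 to 2504 and 2507 to 2688, while those of Hspa5 spread from 6060 to 14638.

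Promoter windows were read from RefSeq on GRCm38.p6, a later build than that of the counts, as the 250 bases before to 50 after each annotated start, and 69 of the 85 genes had at least 1 window. The ER stress element, a CCAAT and a CCACG 9 bases apart on either strand, was found in the windows of 3 of 9 ER chaperone genes and 4 of 12 of the further ER folding genes, against 0.137% of all 27025 genes with a window. The stretches that hold it in Hspa5, Hsp90b1 and Dnajc3, all of which rose with age, are given with each match in capitals, since this is the element through which the unfolded protein response is known to act. A match describes the letters only.
Hspa5, chr2:34771980-34772079, plus strand: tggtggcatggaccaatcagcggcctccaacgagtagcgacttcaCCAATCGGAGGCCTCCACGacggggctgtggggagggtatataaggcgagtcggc
Hsp90b1, chr10:86705515-86705664, minus strand: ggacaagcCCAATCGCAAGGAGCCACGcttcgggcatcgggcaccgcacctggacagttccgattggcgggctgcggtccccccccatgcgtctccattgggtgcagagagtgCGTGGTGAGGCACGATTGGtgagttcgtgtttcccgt
Dnajc3, chr14:118937792-118937891, plus strand: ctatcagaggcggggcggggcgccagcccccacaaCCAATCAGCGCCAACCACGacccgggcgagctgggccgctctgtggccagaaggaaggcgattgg
The window of Hsp90b1 holds the element in both orientations, and those of Hspa5 and Dnajc3 hold it in a single place. The windows of Dnajb9 and Dnajc10, the 2 ER genes with the largest change from P18 to 24 months, have no match.

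The main cytosolic genes Hspa8, Hsp90aa1, Hsp90ab1 and Hspa4 had their highest mean at 6 months. The Hsp70 family has 13 genes, Hspa5 and Hspa13 of the ER included. From P75 to 6 months 8 of them were called higher and 1 lower, with a median change of 0.37. At this step 31.2% of all genes tested were called higher and 29.4% lower. The 8 became 5 without 6-month replicate 1. The 1 lower became 0 without P75 replicate 2 or 6-month replicate 2, 2 without P18 replicate 1, P18 replicate 3, 6-month replicate 3 or 24-month replicate 1, and 3 without 24-month replicate 3. From 6 to 24 months 0 were called higher and 2 lower, beside 16.6% and 12.7% of all genes tested. The 0 became 2 without P18 replicate 1 or P18 replicate 3 and 3 without 24-month replicate 1. By edgeR 2 were higher and by DESeq2 1.

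Hspa8 (chr9:40609067-40613283), which folds new proteins and uncoats clathrin vesicles, had 41889, 43030.1 and 51911 normalized reads at P18 and 40357, 49119 and 34605 at P75. It had 61642, 57903 and 52639 at 6 months and 33261, 44928 and 55145 at 24 months. All 6-month libraries were above all younger ones, and the 24-month libraries ran from the lowest value of the series to above every P18 and P75 library. The change from P75 to 6 months was 0.48 ± 0.18 (adjusted p = 0.0358), and it was 0.36 (adjusted p = 0.15) without P75 replicate 3 and 0.43 (adjusted p = 0.10) without 6-month replicate 1.

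Hsp90aa1 (chr12:111928815-111940938) had 36877, 35124 and 36676 at P18, 39065, 39396 and 40084 at P75, 51678, 46671 and 48180.4 at 6 months, and 41190.5, 41729.6 and 52802 at 24 months. Its P18, P75 and 6-month libraries did not overlap, and 24-month replicate 3 was the highest of all 12. The change from P75 to 6 months was 0.30 ± 0.13 (adjusted p = 0.0614), and without 1 library, namely P75 replicate 1, P75 replicate 2, 6-month replicate 1 or 6-month replicate 3, it was 0.30, 0.30, 0.26 and 0.31 with adjusted p from 0.10 to 0.15. From P18 to 24 months it was 0.31 ± 0.13 (adjusted p = 0.0486), and 0.20 (adjusted p = 0.25) without 24-month replicate 3 and 0.29 (adjusted p = 0.11) without P18 replicate 2. That change was 0.18 (adjusted p = 0.24) with the GC trend removed, 0.19 (adjusted p = 0.17) with the length trend removed and 0.22 (adjusted p = 0.16) after quantile normalization, and the change from P75 to 6 months was 0.19 (adjusted p = 0.19) with the length trend removed and 0.30 (adjusted p = 0.12) on equal totals. With no filter on low values neither was called. Hsp90ab1 (chr17:45704724-45710220) had 38429, 39814 and 42777 at P18, 34816, 39300.0 and 28747 at P75, 43632, 45969 and 39910.0 at 6 months, and 33045, 34857 and 40907 at 24 months. Its change of 0.34 ± 0.14 from P75 to 6 months (adjusted p = 0.0534) was 0.22 (adjusted p = 0.24) without P75 replicate 3, 0.30 (adjusted p = 0.14) without 6-month replicate 2 and 0.33 (adjusted p = 0.10) without 6-month replicate 1, and it was not called with no filter on low values (adjusted p = 0.10). The ratio of Hsp90aa1 to Hsp90ab1 reads was 0.900 ± 0.0533 (SD, n = 3) at P18 and 1.24 ± 0.0468 at 24 months, with no overlap of the libraries.

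Hspa4 (chr11:53073316-53113959), an exchange factor for Hsp70, showed the 6-month peak with less spread. It had 4455, 4525 and 4219.6 at P18, 4202, 4333 and 4060.4 at P75, 6279, 5662 and 5668 at 6 months, and 4049, 4287 and 4683 at 24 months. It rose by 0.48 ± 0.08 (adjusted p = 0.000161) and then fell by 0.44 on the log2 scale (SE 0.08, adjusted p = 0.00307), and the 24-month libraries overlapped those of P18 and P75. Hsph1, its relative of the Hsp110 group, rose by 0.43 ± 0.15 from P75 to 6 months (adjusted p = 0.0216), from 5763 ± 405 to 7737 ± 319 (SD, n = 3). The stress-induced pair Hspa1a and Hspa1b was low, at 87.4 to 419 normalized reads, and cannot be separated reliably because the copies are nearly identical. Hspa1b ranged from 87.4 to 419 within P18, and none of its 5 changes was called. Hspa1a changed by 0.74 ± 0.24 from P18 to 24 months (adjusted p = 0.0138), and by 0.42 (adjusted p = 0.10) without 24-month replicate 3, which at 352 lay well above the 156 and 211 of the other 24-month libraries.

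**Figure D3:**
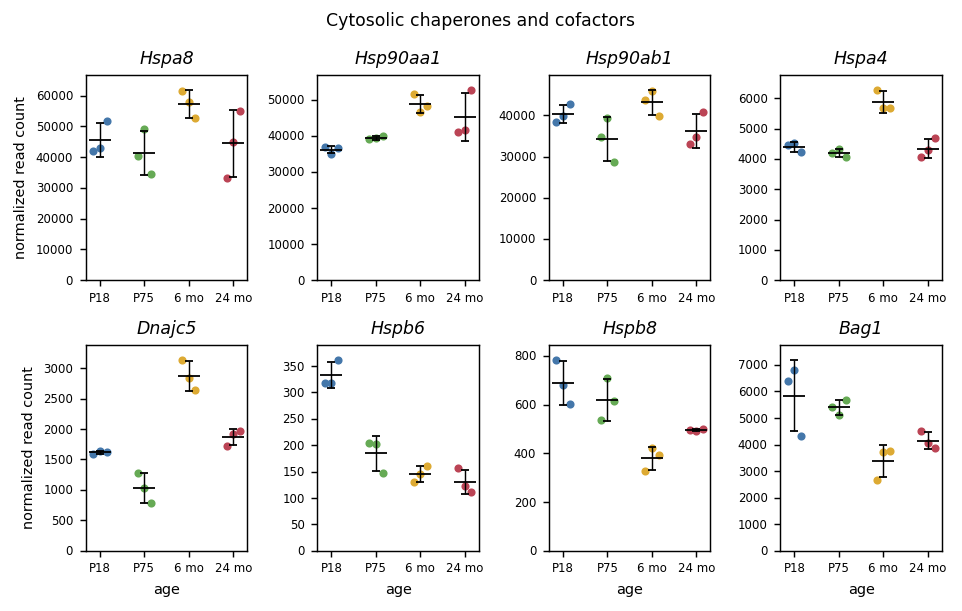
Normalized read counts of 8 cytosolic chaperones and cofactors in each library at the 4 ages, with a point for each library, a horizontal line for the mean and bars of 1 SD over 3 libraries, all axes starting at 0. Hspa8, Hsp90aa1, Hsp90ab1, Hspa4 and Dnajc5 have their highest mean at 6 months, Hspb8 and Bag1 their lowest, and Hspb6 falls from 333 at P18 to 131 at 24 months.

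The genes that regulate or assist these chaperones gave a mixed picture. Of 16 co-chaperones outside the symbol rule 1 rose and 9 fell from P18 to P75, and 7 rose and 4 fell from P75 to 6 months. Among all genes tested 25.9% rose and 22.9% fell at the first of these steps, and 31.2% and 29.4% at the second. St13, which joins Hsp70 to Hsp90, fell by 0.46 on the log2 scale (SE 0.13, adjusted p = 0.00764), rose by 1.10 ± 0.13 (adjusted p = 4.03e-06) and fell by 0.50 (SE 0.13, adjusted p = 0.0128) at the 3 steps. Stub1, the ubiquitin ligase that marks chaperone clients for degradation, changed by -0.57, 0.76 and -0.27, the last with an adjusted p of 0.11. Fkbp5, a prolyl isomerase of steroid receptor complexes, had 1122, 1314 and 1938 normalized reads at P18 and 593, 777 and 679 at P75, a fall of 1.06 on the log2 scale (SE 0.16, adjusted p = 8.37e-05). Among 6 genes of heat shock factors and their binding proteins, Hsf1, the main heat-responsive factor, had 585 to 684 normalized reads at P18 and 426 to 623 at 24 months and was not called between them (-0.24 ± 0.12, adjusted p = 0.10). Hsf2 was not called in any of the 5 comparisons. Hsf4, a factor known from the lens, rose from 112, 107 and 96.4 at P18 to 297, 287 and 303 at 24 months (1.48 ± 0.14, adjusted p = 1.92e-07). Hsbp1, which binds and restrains Hsf1, fell from 12477, 12368 and 12028 to 5344, 5647 and 5151 (-1.19 ± 0.09, adjusted p = 1.58e-08).

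Of the 6 small heat shock protein genes tested, 4 fell from P18 to 24 months, with a median of -0.54, beside 34.3% of all genes tested. Hspb11, counted here by its symbol alone, was among the 4. Hspb1 (-0.36, adjusted p = 0.12) and Hspb2 (0.45, adjusted p = 0.20) were not called. From P75 to 6 months 5 of the 6 were called lower, with a median of -0.72, beside 29.4% of all genes. With the trend on transcript length removed 2 were, since Hspb1, Hspb11 and Hspb6 were then no longer called. At that step 3 of 7 ependymal markers fell, with a median of -0.94, and their summed level was 553 to 615 at P75 and 353 to 450.0 at 6 months. Their part in these values was not tested. From 6 to 24 months 3 of the 6 small heat shock protein genes were called higher, and 1 without 6-month replicate 1, beside 16.6% of all genes. Hspb6, also called Hsp20 (chr7:31337197-31340462), fell first: it had 318, 319 and 361 normalized reads at P18 and 203, 203 and 147 at P75. It had 129.99, 145 and 161 at 6 months and 157, 123 and 112 at 24 months. No P18 library overlapped a later one, and the fall was 0.86 on the log2 scale (SE 0.15, adjusted p = 0.000327) from P18 to P75. From P18 to 24 months it fell by 1.35 on the log2 scale (SE 0.15, adjusted p = 1.02e-06).

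Hspb8, an Hsp22 that works with Bag3 in selective autophagy, had 536, 707 and 616 at P75, 327, 421 and 391 at 6 months and 497, 492 and 499.9 at 24 months. It fell by 0.70 on the log2 scale (SE 0.12, adjusted p = 0.000163) from P75 to 6 months, and its partial return of 0.39 (adjusted p = 0.0334) was 0.29 (adjusted p = 0.16) without 6-month replicate 1. The 24-month libraries differed by 1.02-fold for this gene. Hspb1, the stress-induced Hsp27, had 125, 161 and 161 at P75, 76.4, 110.1 and 81.7 at 6 months and 135, 123 and 198 at 24 months, lowest at 6 months with no overlap. Hspb3, known from muscle, had 87.2, 112 and 113 at P75 and 50.4, 44.4 and 34.1 at 6 months, and Hspb11, which is also a component of the ciliary transport complex IFT-B, had 385, 351 and 469.8 and then 160.1, 213 and 227. They fell by 1.26 and 1.01 on the log2 scale (SE 0.27 and 0.15, adjusted p = 0.00101 and 3.6e-05), and the span of Hspb11 overlaps a further gene model on the same strand. Cryab, the crystallin of the same family that falls outside the symbol rule, had 7470, 7805 and 3523 at P18 and 3276, 3996 and 4791 at 24 months, so that P18 replicate 3 was in the range of the 24-month libraries. Cryab was called lower from P18 to 24 months (-0.57), from P75 to 6 months (-0.45) and from P75 to 24 months (-0.50). From P18 to P75 and from 6 to 24 months it was not called.

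Among the J proteins outside the ER and mitochondria, Dnajc5 and Dnajc24 differed between ages with little or no overlap. Dnajc5, the cysteine string protein that keeps SNAP25 folded at synaptic vesicles (chr2:181255190-181289838), had 1595, 1641 and 1617 normalized reads at P18, 1275, 1026 and 794 at P75, 3126, 2845 and 2636 at 6 months, and 1725, 1923 and 1973 at 24 months. No 2 ages overlapped, and the order was P75, P18, 24 months and 6 months from low to high. It fell by 0.67 on the log2 scale (SE 0.13, adjusted p = 0.000575), rose by 1.498 ± 0.13 (adjusted p = 2.91e-07), the largest rise of any chaperone gene at that step, and fell by 0.61 (SE 0.13, adjusted p = 0.00514). Dnajc24, a J protein of diphthamide synthesis (chr2:105806866-105843706), had 493, 449.7 and 395 at P18, 282, 290.2 and 329 at P75, 189, 186 and 185 at 6 months, and 193, 204 and 205 at 24 months. It fell by 0.57 and then 0.68 on the log2 scale (SE 0.11 each, adjusted p = 0.000538 and 6.39e-05), and its 3 libraries at 6 months had an SD of 2.39.

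Dnajb5 had 2869.7, 2452 and 3085 at P18, 1932, 1987 and 1463 at P75 and 2606, 2609.6 and 2479 at 6 months. It fell by 0.65 on the log2 scale (SE 0.13, adjusted p = 0.000978) and rose again by 0.53 ± 0.13 (adjusted p = 0.00305). Dnajb6, an anti-aggregation J protein and the most abundant Dnajb gene by reads, went from 7439 ± 1004 (SD, n = 3) at P18 to 5134 ± 88.1 at 24 months, a fall of 0.53 on the log2 scale (SE 0.09, adjusted p = 0.000132). Dnaja1, the main J partner of Hspa8, fell by 0.37 on the log2 scale from P18 to P75 (SE 0.11, adjusted p = 0.016), from 10747 ± 633 to 8316 ± 631, though on the scale of equal totals it changed by -0.25 (adjusted p = 0.17). Dnaja2, of the same class, fell by 0.29 on the log2 scale from P75 to 6 months (SE 0.10, adjusted p = 0.0186). Dnajb1, the J protein induced with Hsp70 by heat, changed by -0.42 ± 0.16 from P18 to P75 (adjusted p = 0.0461), and by -0.34 (adjusted p = 0.16) without P75 replicate 1, -0.35 (adjusted p = 0.14) without P18 replicate 1 and -0.41 (adjusted p = 0.10) without P18 replicate 2, and by -0.30 (adjusted p = 0.17) on equal totals. Dnajc6, the auxilin of clathrin uncoating, rose by 0.40 ± 0.09 from P75 to 6 months (adjusted p = 0.00119). Dnajc7 lies against Cnp, a highly abundant oligodendrocyte gene, on the opposite strand, and its 4038 to 6584 normalized reads are uncertain to that extent. It fell by 0.44 on the log2 scale from P18 to 24 months (SE 0.10, adjusted p = 0.00099). Dnajb2, a neuronal J protein, was not called in any comparison.

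The cytosolic chaperonin, which folds actin and tubulin, had few calls between neighbouring ages. With limma 0 of the 6 subunits were called from P18 to P75 and 0 from 6 to 24 months, where 0 and 1 had an unadjusted p under 0.05, edgeR called 0 and 0 and DESeq2 0 and 1. At the step from P75 to 6 months 1 was called higher and 0 lower, and 0 to 1 and 0 to 2 with a library left out. Of all genes tested 48.8%, 60.6% and 29.3% were called at the 3 successive steps. From P18 to 24 months 1 subunit was called higher and 2 lower (1 to 2 with a library left out), beside 69% of all genes. From P75 to 24 months 1 subunit was called higher and 3 lower, beside 54.9% of all genes. The 3 became 1 without P75 replicate 2, and the 1 became 0 without P75 replicate 1, P75 replicate 2, 24-month replicate 2 or 24-month replicate 3, on equal totals and with the length trend removed. Cct8 (chr16:87483570-87496114) had 6640.1, 6628 and 7379 normalized reads at P18, 7159, 7922 and 7008 at P75, 7660.4, 7635 and 7302 at 6 months, and 6362, 6402 and 6999 at 24 months, and none of its 5 changes was called. Cct7 had 6820.4, 8668 and 7427 at P75 and 5652, 5648 and 6504 at 24 months, a fall of 0.36 on the log2 scale (SE 0.11, adjusted p = 0.0128) with no overlap. Of the 2 remaining subunits of the ring that the symbol rule does not take, Tcp1 rose by 0.37 ± 0.08 from P75 to 6 months (adjusted p = 0.00176) and fell by 0.34 on the log2 scale to 24 months (SE 0.08, adjusted p = 0.0118), and Cct6a fell by 0.24 on the log2 scale from P18 to 24 months (SE 0.08, adjusted p = 0.0192). With 4 prefoldin genes, Vbp1 and Pdcl3 they make up the 8 tested partner genes, of which 1 rose and 6 fell from P75 to 6 months. At that step 31.2% of all genes tested rose and 29.4% fell.

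All 8 mitochondrial members were called from P75 to 6 months, 4 higher and 4 lower, beside 60.6% of all genes tested (31.2% higher, 29.4% lower). Hspa9, the mitochondrial Hsp70, had 3117, 2950.3 and 3219 normalized reads at P75, 6273, 5470.4 and 5315 at 6 months and 4124, 3989.7 and 4158 at 24 months. It rose by 0.87 ± 0.09 (adjusted p = 9.89e-07) and fell by 0.47 on the log2 scale (SE 0.09, adjusted p = 0.00239). Dnajc19, of the protein import motor (chr3:33954942-33980243), went the other way, with 945, 969.8 and 1209 at P75, 421, 502 and 606 at 6 months and 837, 733 and 725 at 24 months. It fell by 1.04 on the log2 scale (SE 0.13, adjusted p = 7.72e-06) and rose by 0.60 ± 0.13 (adjusted p = 0.00605). Its span overlaps Fxr1 on the opposite strand.

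Hspd1 and Hspe1 encode the chaperonin ring and its lid in mitochondria and lie head to head, Hspd1 at chr1:55134679-55145087 on the minus strand and Hspe1 at chr1:55144976-55148151 on the plus strand. Their RNAs parted between P75 and 6 months. Hspd1 had 4262, 3965 and 3497 normalized reads at P18, 3498, 3397 and 3605 at P75, 5551, 5244 and 5061 at 6 months, and 3881, 4402 and 4926 at 24 months. Hspe1 had 4394, 4114 and 3823 at P18, 3569.5, 3644 and 4101 at P75, 1818, 2142 and 2339 at 6 months, and 2595, 2730.1 and 3019.5 at 24 months. Hspd1 rose by 0.59 ± 0.10 (adjusted p = 0.000107) while Hspe1 fell by 0.85 on the log2 scale (SE 0.10, adjusted p = 5.43e-06). The ratio of Hspd1 to Hspe1 reads was 0.879 to 0.980 in all 6 libraries of P18 and P75, then 2.16 to 3.05 at 6 months and 1.496 to 1.63 at 24 months. Hspe1 has 4 named pseudogenes and the ends of both genes overlap on opposite strands, so their reads are uncertain to that extent. Both genes share a promoter region: 285 bases of a RefSeq window of Hspe1 are also in a window of Hspd1. A stretch of it is given because its matches to the heat shock element lie in the windows of both genes.
Hspe1, chr1:55088018-55088117 of GRCm38.p6, plus strand: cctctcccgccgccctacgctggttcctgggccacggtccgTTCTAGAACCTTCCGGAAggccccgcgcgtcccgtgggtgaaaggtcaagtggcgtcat
The capitals mark 2 overlapping matches to 3 alternating units of the heat shock element, GAANNTTCNNGAA and TTCNNGAANNTTC on either strand.

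The Hspd1 transcript was taken as 2423 bases and that of Hspe1 as 774, and transcript length went with the change from P75 to 6 months in all genes. Across the 14153 tested genes with a known length Spearman's rho between length and log2 change was 0.318, and across the 77 chaperone genes it was 0.617, given as a description since genes of a library share its preparation. Under 1000 bases the median change was -0.73 over 762 genes and -0.80 over 6 chaperone genes, none of which had a change above 0. Over 4000 bases it was 0.15 over all genes and 0.38 over 20 chaperone genes, 16 of them above 0. From 6 to 24 months the sign of rho turned, to -0.325 over all genes and -0.402 over the chaperones. When the trend on length was removed in each library, Hspd1 changed by 0.56 ± 0.09 (adjusted p = 0.000164) from P75 to 6 months and Hspe1 by -0.17 ± 0.09 (adjusted p = 0.12). The changes of Hspb1, Hspb11 and Hspb6 became -0.18, -0.17 and -0.04 and were not called. The rises of Hsp90aa1 and Dnaja1 became 0.19 (adjusted p = 0.19) and 0.13 (adjusted p = 0.33) and were not called either. Those of Dnajc19 (-1.07), Dnajc5 (1.35), Hspa9 (0.78), Hspa5 (1.06), Dnajb12 (1.10), Hspb8 (-0.60), Hspb3 (-0.59) and Hspa4 (0.32) were still called. In all 44 instead of 54 of the 77 chaperone genes were called at this step. Of the 14153 genes with a known length 8155 were called in the same way, a share close to that of the chaperones.

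**Figure D4:**
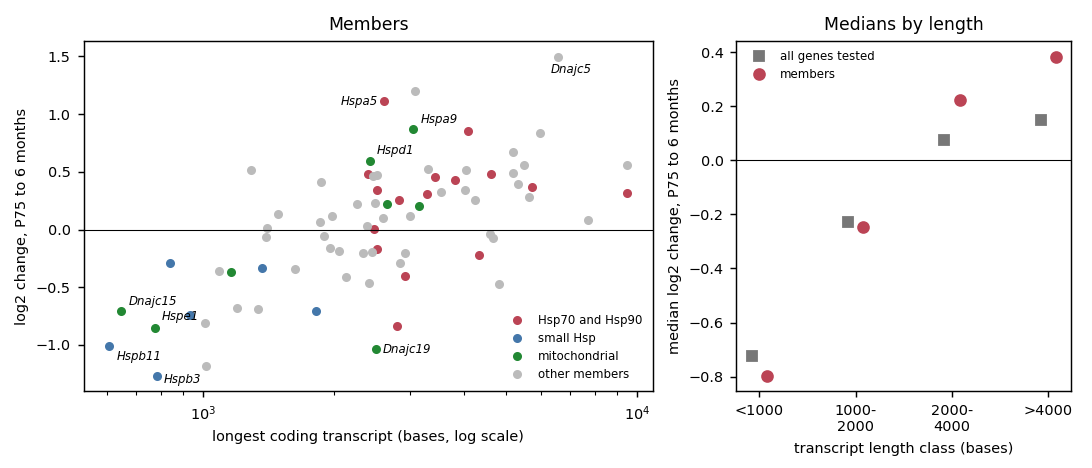
Left, log2 change from P75 to 6 months of each of the 77 chaperone genes tested against the length of its longest coding transcript in bases on a log axis, coloured by family. Right, median log2 change in 4 length classes for all genes tested (squares) and chaperone genes (circles). Short transcripts such as Hspe1, Hspb11 and Hspb3 lie below 0 and the medians go from -0.73 to 0.15 for all genes and from -0.80 to 0.38 for chaperones, while Dnajc19 lies far below others of its length.

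Of the 5 Bag genes, which release clients from Hsp70, 1 was called higher and 4 lower from P18 to 24 months, and 2 lower on equal totals. Over this span 34.7% of all genes tested were called higher and 34.3% lower. Bag1 (chr4:40883431-40895314) had 5401, 5111 and 5680.0 normalized reads at P75, 2683, 3717 and 3746 at 6 months and 4499.6, 4076 and 3883 at 24 months. It fell by 0.69 on the log2 scale from P75 to 6 months (SE 0.15, adjusted p = 0.00122) with no overlap. Bag4, which silences death receptors, fell by 0.48 on the log2 scale at the same step (SE 0.09, adjusted p = 0.000266), and Bag5 fell by 0.41 (SE 0.10, adjusted p = 0.00199). Bag3, the stress-induced member that directs clients to autophagy, was the exception: it had 342, 347 and 272 at P18, 263, 355 and 350.4 at P75, and 371, 457 and 475 at 24 months. It rose by 0.44 ± 0.14 from P18 to 24 months (adjusted p = 0.00989). Every 24-month library was above every younger one.

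Heat-inducible genes were spread in a common order between the libraries of 24 months. The list held 12 members: Hspa1a, Hspa1b, Hspa8, Hsph1, Hsp90aa1, Hsp90ab1, Hspb1, Hspd1, Hspe1, Dnaja1, Dnajb1 and Bag3. From P18 to 24 months 3 of them were called higher and 2 lower, with a median of 0.05, beside 34.7% and 34.3% of all genes tested. The counts were 1 higher and 4 lower without 24-month replicate 3, 5 and 1 without 24-month replicate 1, and 6 and 1 without P18 replicate 1. At 24 months all 12 were highest in replicate 3, and 11 were also lowest in replicate 1, which is 91.7% of the list beside 28.4% of all genes tested and 45.5% of all chaperone genes tested. Other ages showed an order in part. At P75 6 of the 12 were highest in replicate 3 and lowest in replicate 1 (50%, beside 19.4% of all genes tested). At 6 months 4 were (33.3%, beside 18.1%). At P18 9 were highest in replicate 1 and 8 lowest in replicate 3, beside 4051 and 5620 of 14634 genes tested. The median ratio of the highest to the lowest of the 3 libraries was 1.24, 1.23 and 1.16 for the list at P18, P75 and 6 months. For all genes tested it was 1.231, 1.195 and 1.171. At 24 months it was 1.48 for the list and 1.16 for all genes. It was 1.67 for 10 immediate early genes, 1.61 for the 16 further ER folding genes and 1.325 for the 10 ER chaperones at that age. At P18, P75 and 6 months it was 2.21, 1.57 and 1.21 for the immediate early genes. For the further ER folding genes it was 1.28, 1.17 and 1.15 at these ages, and for the ER chaperones 1.20, 1.21 and 1.18. Within the list the ratio at 24 months was 2.87 for Hspa1b, 2.26 for Hspa1a, 1.86 for Dnajb1, 1.66 for Hspa8, 1.55 for Hsph1 and 1.16 for Hspe1. Of the 16 further ER folding genes 14 were highest in replicate 3 and lowest in replicate 1, of the 6 chaperonin subunits 5, of 10 immediate early genes 9, and of the 10 ER chaperones 4. Dnajc genes showed no such order, with 5 of 21. The same libraries had 24080687, 21565600 and 24541436 reads on genes, and Mbp took 7.52%, 6.33% and 5.34% of them in replicates 1, 2 and 3. The part of these values in the spread was not tested.

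**Figure D5:**
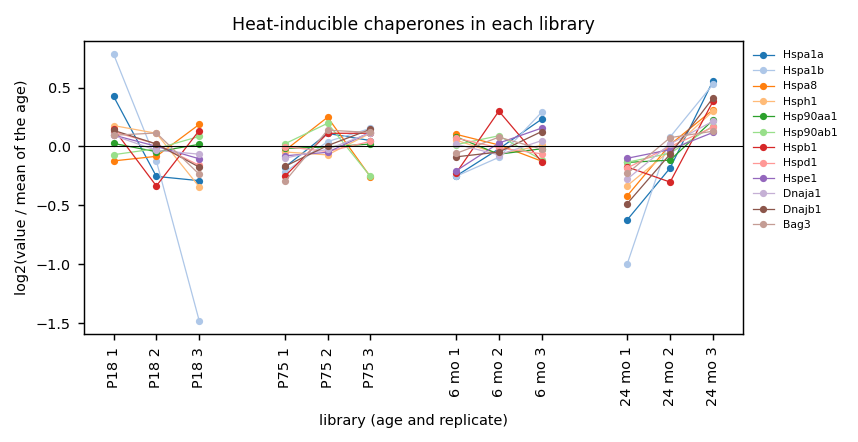
Log2 ratio of each of the 12 heat-inducible genes to its mean at the same age, in each of the 3 libraries of every age. Lines join the values of a gene within an age and carry no order in time. At 24 months all 12 genes are highest in replicate 3 and 11 are lowest in replicate 1, and Hspa1b is also far apart between the P18 libraries.

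In their promoter windows, 8 of the 9 heat-inducible genes with a window held the heat shock dyad, GAANNTTC or TTCNNGAA, which 17% of all genes with a window hold, and 3 held the triad found in 0.662% of genes, namely Hspe1, Hspd1 and Hsph1. Hspa1b, the gene of the list with the widest spread between the 24-month libraries, has 1 dyad in the stretch shown, which marks the match in capitals.
Hspa1b, chr17:34959289-34959388 of GRCm38.p6, minus strand: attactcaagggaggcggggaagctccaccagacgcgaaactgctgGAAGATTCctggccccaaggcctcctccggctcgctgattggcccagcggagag
Of the 9 ER chaperone genes with a window 1 held the dyad, and no heat-inducible gene held the ER stress element.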

How the data were processed

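RNA of purified myelin was sequenced in 12 libraries by the authors, who aligned reads to mm9 with TopHat (TopHat2 2.0.8 in the submitters' processing notes, a different version in the study's methods), counted them on genes with HTSeq 0.5.4p1 and scaled each library with DESeq. Per gene and library, the authors deposited a signal in normalized reads, on a linear scale and without division by length. Strand use in counting is not given in the sources used here. All checked values up to 1000 (100%) were whole multiples of 1 read within 0.1 read, so reads were recovered.

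Members were matched by symbol. The members, the gene lists and the rule for named genes were chosen with earlier results of these data known. The rule names the 2 most abundant members of a family, the 3 largest called rises and falls of a comparison (mean of at least 100 at 1 age), the heat-inducible and ER lists, and genes of the heat shock factor, co-chaperone and marker lists; Bag5, Dnajc16, Dnajc25, Hspb2, Hyou1, Cct6a, Tcp1, Cryab, Atf4 and Ddit3 were added after their values were seen. The symbol Bag6 had no match. Genes with a mean of at least 10 (14634) entered limma 3.58.1 (trend, empirical Bayes; R 4.3.3) on log2(normalized read count + 1), 1 fit over 12 libraries with age alone; a change is on that scale, with SE. Single brains are stated at 6 months alone, so p-values measure the spread between libraries, which may in part be technical.

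Alternatives were pseudocounts of 0.5 and 10, no filter, a mean over 100, only the 2 ages compared, replicate number as a block, equal totals, quantile normalization, edgeR 4.0.16 and DESeq2 1.42.0 on recovered reads, an adjusted p under 0.05, and each library left out; removal of length and GC trends was chosen after seeing the data. Lengths came from GENCODE vM1 on NCBIM37 (91.3% of symbols). Tests were checked on simulated data. No label ties libraries of the same number: deviations from the age means correlated by 0.161, 0.101 and 0.187 between P75 and 6 months, and in no other pair of ages were all 3 above 0.1. Python 3.11.15 with pandas 2.3.3, numpy 2.4.6 and matplotlib 3.10.9 was used.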

Additional observations from a re-analysis of the deposited data

How the results depend on the processing

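Of the 5 counts of chaperone genes called, those of P18 to P75 (27), P75 to 6 months (54), P75 to 24 months (43) and P18 to 24 months (51) stayed within 1.5 times their value under every alternative, and that of 6 to 24 months (23) was 14 with equal totals and 13 at an adjusted p under 0.05. With 1 library left out the counts were 21 to 30, 42 to 59, 11 to 31, 36 to 47 and 46 to 53 for P18 to P75, P75 to 6 months, 6 to 24 months, P75 to 24 months and P18 to 24 months. For 6 to 24 months the lowest was without 24-month replicate 2 and the highest without P18 replicate 3, and the cause was not tested.

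Of 117 called changes of named genes, 78 were called under every alternative. Of their 2919 values under the alternatives, 2745 kept direction and call, 173 kept the direction but were not called and 1 reversed: Hspb11 changed by -0.024 instead of 0.36 from 6 to 24 months with the length trend removed. With a replicate block the counts were 24, 52, 20, 43 and 51, and for P75 to 6 months, where the numbers were taken as pairing, Dnajc7 (-0.21, adjusted p = 0.118) was no longer called. The block cost 3 other called changes of named genes, all from 6 to 24 months: Dnajb11, Dnajb5 and Hspb11. The lowest read numbers among tested members were 7 to 26 in Hspb2, 21 to 71 in Dnajb3 and 23 to 57 in Hspa12b, so that counting error is largest there.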
